A study of Homo sapiens with 12 samples.

Results

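The NFAT transcription factors and their activating phosphatase calcineurin were followed in SK-UT-1 cells given a BET inhibitor. The 10 genes were chosen by name out of 22784 gene symbols with values, with earlier results of these data known, among them the fall of NFATC4. They are the 5 factors NFATC1, NFATC2, NFATC3, NFATC4 and NFAT5, the calcineurin catalytic subunits PPP3CA, PPP3CB and PPP3CC, and the calcineurin regulators RCAN1 and RCAN2. Of the 10 genes, 9 passed the filter on low values and were tested, and RCAN2 did not pass.

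SK-UT-1 is an established line from a human uterine leiomyosarcoma, a malignant smooth muscle tumour of the uterus. The cells were exposed for 48 h to the vehicle DMSO or to one of the inhibitors JQ1 and I-BET 762, each at 5 µM, which compete with acetylated histones for the bromodomains of the BET proteins. RNA-seq values were analysed here for 3 DMSO, 4 JQ1 and 3 I-BET 762 libraries, and all of them come from this 1 cell line. DMSO replicate 16 and I-BET 762 replicate 24 are not analysed here. The sources do not say whether replicates are separate cultures, so the p-values measure only the spread between these libraries, which may be technical.

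Calcineurin is a phosphatase of a catalytic and a regulatory subunit that a rise in calcium switches on. It removes phosphates from NFATC1 to NFATC4, which then enter the nucleus and bind GGAAA elements, often next to AP-1 proteins, while kinases such as GSK3 and DYRK1A send them back out. NFAT5 answers to osmotic stress without calcineurin. RCAN proteins bind calcineurin and restrain it, and a short form of RCAN1 is itself a classical target of NFAT. Calcineurin and NFAT are best known for T cell activation, and they also act in smooth and cardiac muscle.

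Reads on genes numbered 35564586 to 39658989 per library. Values are given as normalized counts, the reads divided by the size factor of the library. A count of 0 allows up to 3 reads, or 2.73 to 3.30 normalized counts by library, and this limit covers counting error only. Differences between libraries of a group exceeded counting error in all 12 pairs, where the chi-square per gene lay between 2.68 and 20.6. The 4 JQ1 libraries were not alike on the second principal component, which held 6.22% of the variance and where replicates 17 and 19 scored 19.6 and 19.9 but replicates 18 and 20 scored 7.503 and 1.79. As a check of the treatment, HEXIM1, a gene known to rise with BET inhibitors, had 1627 ± 22.6 normalized counts (SD, n = 3) with DMSO, 4718 ± 218.2 (n = 4) with JQ1 and 3370.4 ± 142 (n = 3) with I-BET 762. MYC, often lowered by these compounds in blood cancers, rose with JQ1 by 1.002 on the log2 scale and was higher by 0.54 with I-BET 762, under the 1.5-fold needed for a call. Of the target proteins' genes, BRD3 changed by -0.33 and -0.37 without being called, and BRD2 ran from 6.78 to 152.9 normalized counts within the DMSO group alone, too uneven for use.

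The smooth muscle label was only partly met. Of 10 smooth muscle markers 9 were measured and MYH11 is not analysed here. Their summed normalized counts were 20502 to 21137 with DMSO, 10662 to 11270.0 with JQ1 and 11822 to 12374 with I-BET 762, and ACTG2 and MYOCD had at most 3 reads in every library. With each inhibitor 6 of the 7 markers tested were lower, namely ACTA2, TAGLN, CNN1, DES, CALD1 and LMOD1, where 22.8% of all genes tested were called lower with JQ1 and 17.9% with I-BET 762. The estrogen receptor gene ESR1 had at most 3 reads in every library. The summed epithelial markers lay between 1212 and 1271 normalized counts with DMSO, between 511 and 602 with JQ1 and between 497 and 544 with I-BET 762. All 4 tested were lower with each inhibitor. The 1.5-fold needed for a call was passed by all 4 with JQ1 and by 3 with I-BET 762, beside the same shares of all genes. KRT18 missed it with I-BET 762, at -0.48 on the log2 scale. The lymphoid markers PTPRC and CD2 had at most 3 reads in every library, and the 3 endothelial markers together stayed at or below 7.40 normalized counts. The fall of the smooth muscle and epithelial markers moved with the changes described next, and its part in them was not tested. In bulk RNA, fewer cells expressing a gene and less RNA of it per cell cannot be told apart.

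Each gene was compared by limma, with Benjamini-Hochberg adjustment over all 14839 genes tested, and was called with an adjusted p under 0.05 and a fold change over 1.5 (0.585 on the log2 scale). With JQ1, 5 of the 9 members tested were called against 36.1% of all genes tested: NFATC1, NFATC2, NFATC4 and RCAN1 were lower (4 of 9, against 22.8% of all genes) and PPP3CB was higher (1 of 9, against 13.3%). With I-BET 762 the calls fell on the same 5 genes in the same directions, where 26.9% of all genes were called, 17.9% lower and 8.96% higher. Both comparisons use the same 3 DMSO libraries, so they are not independent. Without the fold threshold all 9 members passed with each inhibitor, as did 71.7% of all genes with JQ1 and 61.1% with I-BET 762. Likewise, treated and DMSO libraries did not overlap for any of the 9 members with either inhibitor, which held for 68.4% and 71.0% of all genes. NFATC4 was known to fall when the members were chosen, so its own values against DMSO are a description without a test, and the other counts are not independent evidence either.

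**Figure D1:**
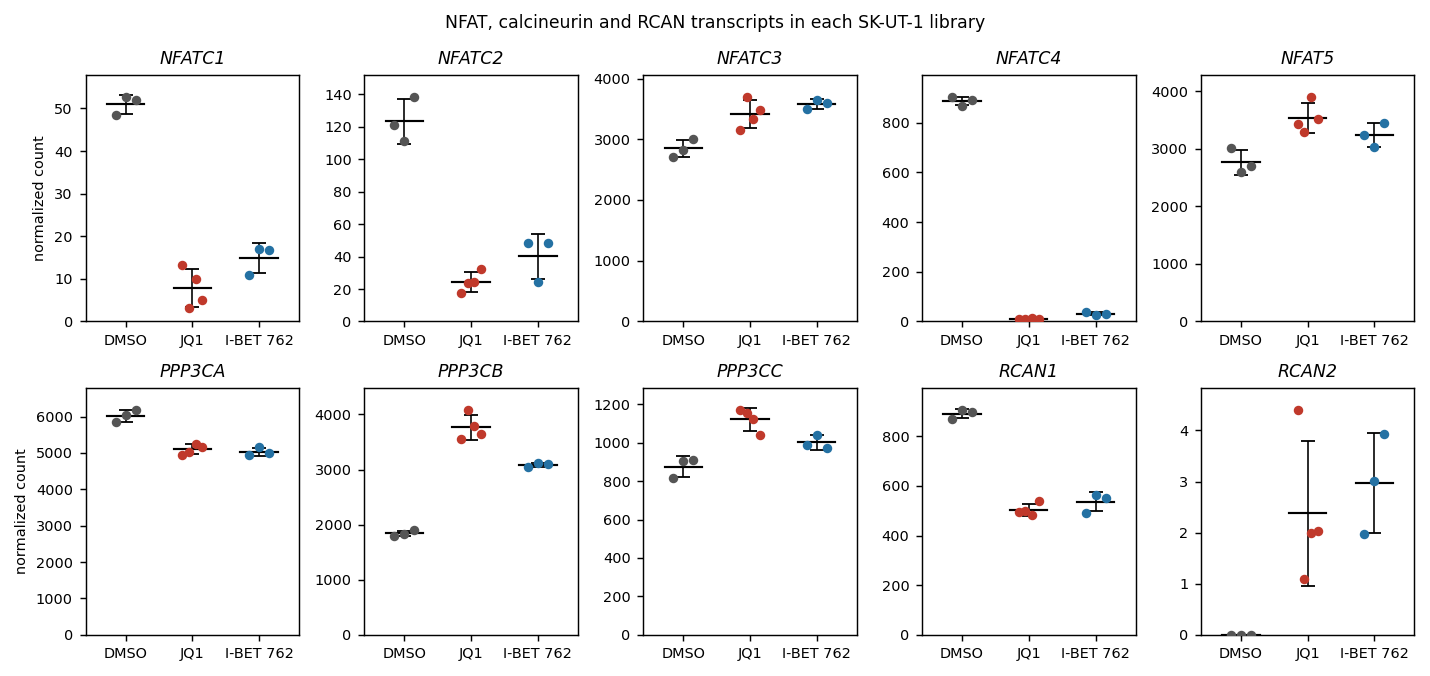
Normalized count (vertical axis, linear from 0, a scale of its own per gene) of the 10 genes in each library, with DMSO in grey (n = 3), JQ1 in red (n = 4) and I-BET 762 in blue (n = 3). Horizontal bars are means and error bars SDs. NFATC4 drops from above 869 to below 39 normalized counts, PPP3CB lies above 3041 in every treated library against at most 1894 with DMSO, and RCAN2 stays below 4.4 throughout.

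**Figure D2:**
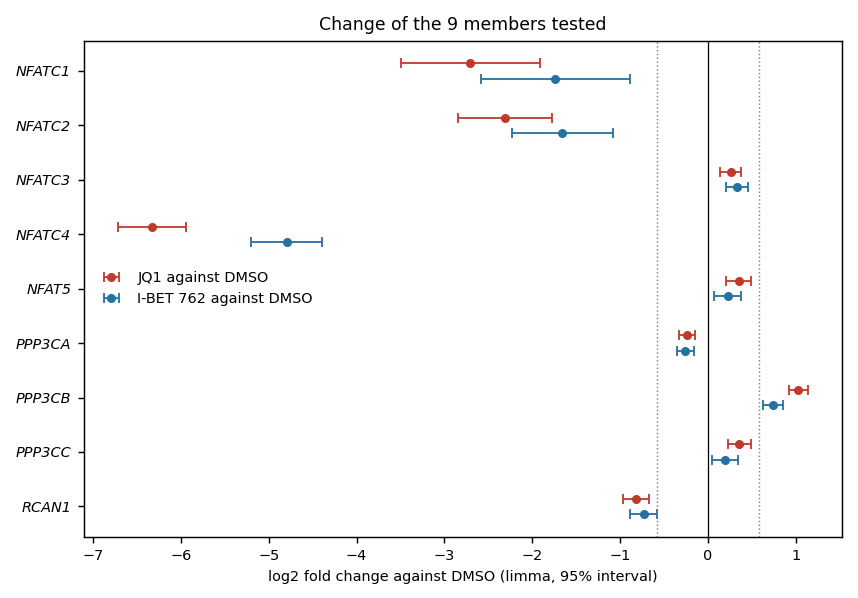
Log2 fold change against DMSO (horizontal axis) of the 9 members tested, as the limma estimate with its 95% interval, for JQ1 (red) and I-BET 762 (blue). Dotted lines mark 1.5-fold in either direction, and the 4 genes that fell past it and PPP3CB, which rose past it, do so with both inhibitors.

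NFATC4, a calcineurin-dependent factor at chr14:24365673-24379604 (GRCh38, plus strand), had 904, 869 and 891 normalized counts in DMSO replicates 13, 14 and 15. In JQ1 replicates 17 to 20 it had 8.79, 9.79, 13.0 and 9.13, from 8 to 13 reads per library. In I-BET 762 replicates 21 to 23 it had 38.4, 27.1 and 28.5. All 3 groups were thus separate, with the lowest values under JQ1. The log2 fold change against DMSO was -6.33 (standard error 0.18) with JQ1, at which 0 of the 14839 genes tested had a lower value, and -4.80 (standard error 0.19) with I-BET 762, at which 2 genes did. In the direct comparison of the inhibitors NFATC4 was lower under JQ1 by 1.53 on the log2 scale, or 2.89-fold. The 95% interval of the log2 difference was -1.91 to -1.15 (adjusted p = 2.255e-05, limma), and 30 of the genes tested had a lower value there. NFATC4 was chosen with its fall known, and the same treated libraries enter this comparison. Its p is therefore not independent of the choice. The residual level stayed above the limit of 3 reads in every treated library, so the gene was detected throughout.

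NFATC1, a factor known from T cells, osteoclasts and heart valves, lies at chr18:79395856-79529325 (plus strand) and was sparse from the start. It had 48.4, 52.7 and 51.9 normalized counts with DMSO. The JQ1 values in replicates 17 to 20 were 13.2, 3.26, 10.004 and 5.07, and the I-BET 762 values were 10.8, 17.0 and 16.7. Every treated library lay below every DMSO library. Within JQ1 the higher pair was replicates 17 and 19, the pair that also scored high on the second principal component. That split rests on few reads, 12 and 10 beside 3 and 5. The fall was 2.70 (standard error 0.37) on the log2 scale with JQ1 (adjusted p = 7.68e-06, limma) and 1.74 (standard error 0.40) with I-BET 762 (adjusted p = 0.001388).

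NFATC2, the factor most studied in T cells, lies at chr20:51386957-51562831 (minus strand). It had 121, 111 and 138 normalized counts with DMSO, 17.6, 23.9, 24.0 and 32.5 with JQ1, and 48.2, 24.1 and 48.2 with I-BET 762. The treated groups did not overlap DMSO, but overlapped each other through I-BET 762 replicate 22. The fall was 2.31 (standard error 0.25) with JQ1 (adjusted p = 5.706e-07, limma) and 1.66 (standard error 0.27) with I-BET 762 (adjusted p = 6.919e-05), on the log2 scale. These 2 sparse genes, at 3 to 57 and 16 to 152 reads per library, carried wider intervals than any other member.

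NFATC3, at chr16:68084751-68229259 (plus strand), another calcineurin-dependent factor, moved the other way. It had 2716, 2828 and 3005 normalized counts with DMSO, 3147, 3696, 3335 and 3476 with JQ1, and 3497, 3645 and 3598 with I-BET 762. All treated libraries lay above all DMSO libraries, by a log2 difference of 0.26 (adjusted p = 0.0006361, limma) with JQ1 and 0.33 (adjusted p = 0.0001901) with I-BET 762, both short of 1.5-fold. When libraries were rescaled to equal totals, the JQ1 difference was 0.07 with an adjusted p of 0.172. Of its exon bases 31.75% also lie in exons of an antisense long non-coding RNA. Since the libraries were strand-specific but the strand setting of the counting is not stated, reads of that RNA cannot be told apart from its own. Long non-coding RNAs on the strand of NFATC3 share 15.73% and 3.24% of its exon bases, an overlap that no strand setting removes.

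NFAT5, the osmotic member at chr16:69565094-69704666 (plus strand), had 3013, 2596 and 2704 normalized counts with DMSO, 3425, 3287, 3903 and 3517 with JQ1, and 3233, 3027 and 3448 with I-BET 762. Its treated libraries also lay above DMSO, though I-BET 762 replicate 22 exceeded DMSO replicate 13 by little. The log2 difference was 0.35 (adjusted p = 0.0002023, limma) with JQ1 and 0.22 (adjusted p = 0.01257) with I-BET 762, under the fold threshold. At equal totals these were 0.17 (adjusted p = 0.0723) and 0.13 (adjusted p = 0.199). A long non-coding RNA on the same strand shares 7.83% of the NFAT5 exon bases.

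The makeup of the calcineurin-dependent factors changed with these values. Levels were divided by kilobases of exon, the only scale used here to compare genes. With DMSO, NFATC3 made up 70.8% to 72.7% of the summed level of NFATC1 to NFATC4 in the 3 libraries and NFATC4 made up 22.5% to 24.6%, with 3.02% to 3.56% from NFATC2 and 1.22% to 1.31% from NFATC1. NFATC3 then held 98.6% to 99.0% with JQ1 and 97.2% to 98.1% with I-BET 762. NFATC4 held 0.270% to 0.401% and 0.760% to 1.11%. The summed level changed much less than its makeup, from 449 ± 17.7 normalized counts per kb (SD, n = 3) with DMSO to 393 ± 26.2 (n = 4) with JQ1 and 417 ± 7.09 (n = 3) with I-BET 762. Unlike the shares, this sum depends on the scaling of the libraries, and it was not recomputed at equal totals.

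**Figure D3:**
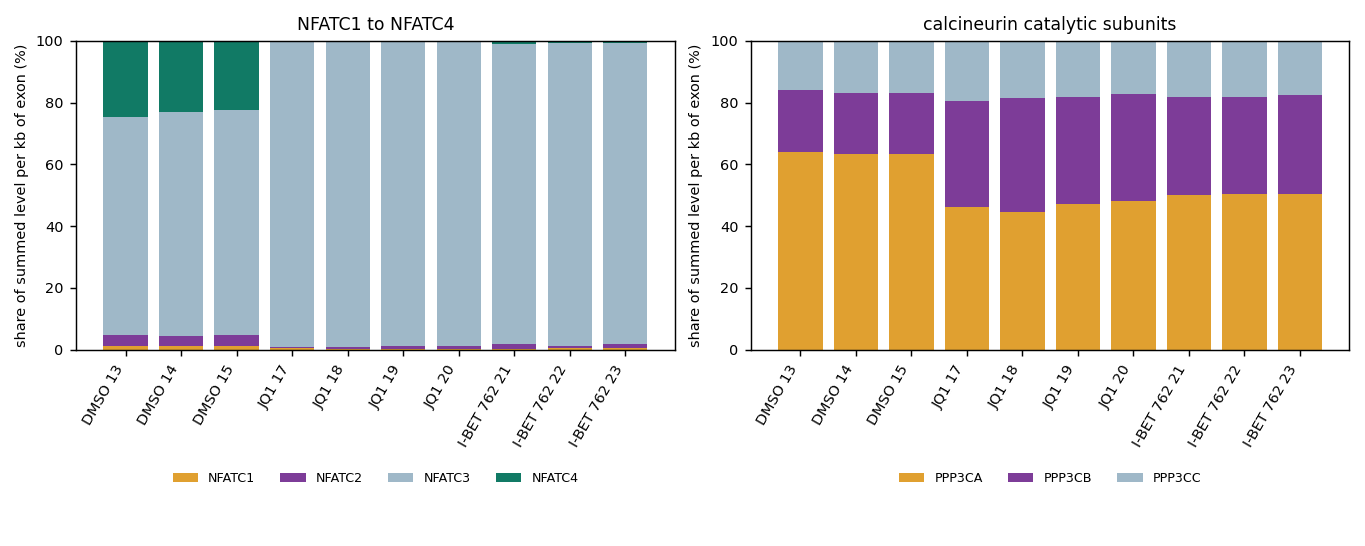
Share (vertical axis, percent, from 0) of each gene in the level per kb of exon summed over NFATC1 to NFATC4 (left) and over the calcineurin catalytic subunits (right), 1 bar per library. NFATC4 holds 22.5% to 24.6% of the left bars with DMSO and at most 1.11% in a treated library, and PPP3CB goes from 19.7% to 20.1% of the right bars to between 31.3% and 37.1%.

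Promoter sequence is shown for the 3 NFAT genes that fell, in the window from 250 bases before to 50 after a RefSeq start on GRCh38.p14, written 5′ to 3′ on the strand of the gene. Capitals mark the NFAT core GGAAA, which reads TTTCC where it lies on the other strand. Of the members, 6 matched the RefSeq promoter table (NFATC1, NFATC2, NFATC3, NFATC4, RCAN1 and RCAN2), with 17 windows in all, and 8 windows of 5 genes held a core. The entries for NFAT5, PPP3CA, PPP3CB and PPP3CC are missing.
NFATC4, chr14:24366661-24366960: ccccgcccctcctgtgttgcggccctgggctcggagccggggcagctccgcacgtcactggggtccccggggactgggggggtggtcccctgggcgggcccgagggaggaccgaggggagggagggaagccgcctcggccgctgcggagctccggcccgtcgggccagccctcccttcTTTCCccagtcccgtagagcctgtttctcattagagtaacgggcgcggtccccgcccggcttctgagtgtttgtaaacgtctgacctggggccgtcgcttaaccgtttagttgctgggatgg
NFATC1, chr18:79395680-79395979: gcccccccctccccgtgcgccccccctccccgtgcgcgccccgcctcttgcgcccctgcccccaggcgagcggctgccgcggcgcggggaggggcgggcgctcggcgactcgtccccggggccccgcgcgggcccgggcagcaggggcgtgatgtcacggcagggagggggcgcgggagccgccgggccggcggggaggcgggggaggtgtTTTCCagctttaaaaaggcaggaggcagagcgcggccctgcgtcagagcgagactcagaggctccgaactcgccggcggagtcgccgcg
NFATC2, chr20:51562790-51563089: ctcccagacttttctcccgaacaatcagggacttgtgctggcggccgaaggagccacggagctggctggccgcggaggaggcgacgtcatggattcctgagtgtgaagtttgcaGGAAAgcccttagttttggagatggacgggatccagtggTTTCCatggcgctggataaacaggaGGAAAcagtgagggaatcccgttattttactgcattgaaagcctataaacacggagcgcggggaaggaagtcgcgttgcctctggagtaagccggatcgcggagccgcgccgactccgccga
The NFATC4 window held 1 core, the NFATC1 window 1 and the NFATC2 window 3, counted on both strands. The core is short and 61.2% of the 35116 RefSeq promoters hold it. The NFATC2 window also held TATAAA at base -29 from the start, as 11.5% of promoters do within 300 bases on either strand. GC content was 70.3% for NFATC4, 79.7% for NFATC1 and 57.7% for NFATC2, beside a median of 58.7% over all promoters. The other NFATC4 windows, at starts 2087 and 2171 bases further in, and the NFATC3 window held no core. The other NFATC2 window, at a start 20120 bases further in, held no core and no TATAAA, with a GC content of 80.7%. The other NFATC1 window, 4369 bases further in, held 1 core, with a GC content of 73.3%. A match is a description of letters and not of a bound site.

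The catalytic subunits of calcineurin shifted against each other. PPP3CB, the beta isoform at chr10:73436433-73496024 (minus strand), had 1801, 1837 and 1894 normalized counts with DMSO. It had 3561, 4076, 3792 and 3648 with JQ1 and 3042, 3120.0 and 3095 with I-BET 762. The 3 groups were separate, in the order DMSO, I-BET 762, JQ1. Its log2 fold change was 1.03 (standard error 0.05) under JQ1, with an adjusted p of 4.823e-11 by limma, and under I-BET 762 it was 0.74 (standard error 0.05), with an adjusted p of 1.204e-08. An antisense transcript, PPP3CB-AS1, shares 13 exon bases with it and rose, with log2 fold changes of 1.36 and 1.29, from a mean of 93.8 normalized counts with DMSO to 242 and 232. Its part in the PPP3CB values was not tested.

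PPP3CA, the alpha isoform at chr4:101023409-101348278 (minus strand) and the most abundant subunit, went the other way by a small amount. It had 5853, 6048 and 6172 normalized counts with DMSO, 4956, 5019, 5247 and 5173 with JQ1, and 4929.7, 5149 and 5008 with I-BET 762. Treated libraries all lay below DMSO and the inhibitors overlapped. It was lower by 0.24 on the log2 scale with JQ1 (adjusted p = 0.0001053, limma) and by 0.26 with I-BET 762 (adjusted p = 0.0001404), under the fold threshold.

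PPP3CC, the gamma isoform, lies at chr8:22440819-22541142 (plus strand). It had 815, 903 and 909 normalized counts with DMSO, 1169, 1154, 1126 and 1039 with JQ1, and 989.9, 1043 and 972 with I-BET 762. Both treated groups lay above DMSO, by 0.36 with JQ1 (adjusted p = 9.52e-05, limma) and 0.19 with I-BET 762 (adjusted p = 0.02022) on the log2 scale, again short of a call. At equal totals the I-BET 762 difference was 0.10 (adjusted p = 0.185). An antisense long non-coding RNA shares 10.3% of its exon bases.

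Per kb of exon, PPP3CA held 63.3% to 63.9% of the summed catalytic level with DMSO, 44.5% to 48.0% with JQ1 and 50.2% to 50.5% with I-BET 762. PPP3CB held 19.7% to 20.1%, 34.1% to 37.1% and 31.3% to 31.9% in the same order, and PPP3CC 16.0% to 17.0%, 17.3% to 19.6% and 17.6% to 18.4%. The sum over the 3 subunits was 1820.1 ± 56.9 normalized counts per kb (SD, n = 3) with DMSO, 2106 ± 53.2 (n = 4) with JQ1 and 1916 ± 39.4 (n = 3) with I-BET 762. Unlike the shares, this sum depends on the scaling of the libraries, and it was not recomputed at equal totals. There the log2 differences from DMSO were -0.43 and -0.36 for PPP3CA, 0.84 and 0.65 for PPP3CB, and 0.17 and 0.10 for PPP3CC, with JQ1 and I-BET 762. Each was below its value in the main fit, so no rise of the sum is claimed. The regulatory subunit gene PPP3R1, which the catalytic subunits need for activity, differed from DMSO by 0.05 with JQ1 (95% interval -0.08 to 0.17, adjusted p = 0.488) and by -0.02 with I-BET 762 (95% interval -0.16 to 0.11, adjusted p = 0.7914).

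RCAN1, the feedback regulator of calcineurin at chr21:34513142-34615113 (minus strand), fell with both inhibitors. Its normalized counts were 869.7, 905 and 899 with DMSO, 494, 499, 483 and 539 with JQ1, and 492, 565 and 552 with I-BET 762. No treated library came near a DMSO library, and the inhibitors overlapped. The fall was 0.82 (standard error 0.07) on the log2 scale with JQ1 (adjusted p = 2.682e-08, limma) and 0.73 (standard error 0.07) with I-BET 762 (adjusted p = 4.336e-07). Gene-level values cannot separate the long RCAN1 form from the short one, and 13.2% of the exon bases are shared with an overlapping gene model on the same strand.

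The short form starts at an internal promoter, 88291 bases inside the gene, and its window is shown because it is dense in the element that NFAT binds. It is given 5′ to 3′ on the minus strand, GRCh38.p14, with capitals again on the NFAT core.
RCAN1, chr21:34526773-34527072: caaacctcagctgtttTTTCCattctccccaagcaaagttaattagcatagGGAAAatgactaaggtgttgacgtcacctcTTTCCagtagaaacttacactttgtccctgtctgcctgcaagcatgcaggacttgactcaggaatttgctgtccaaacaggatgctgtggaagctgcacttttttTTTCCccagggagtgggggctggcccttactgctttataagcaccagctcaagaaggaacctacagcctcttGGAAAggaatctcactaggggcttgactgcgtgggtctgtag
This window held 5 cores, which 0.740% of all promoters match or exceed, and also the AP-1 element TGANTCA at base -116 from the start and, on the opposite strand, TATAAA at base -31. All 3 motifs together occur in 0.830% of promoters, and the AP-1 element in 7.71%. This window was picked out of the 17 member windows for its cores, so these shares are a description and not a test of enrichment. RCAN1 has 2 more internal windows, at starts 89646 and 90476 bases inside the gene, with 1 core each, and the first of them also held the AP-1 element and TATAAA. The windows at the upstream start and at 2 further starts near it held no core. The longer osmotic element of NFAT5, which contains the core, was present once in this window, and 20.2% of promoters hold it.

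RCAN2, a related regulator at chr6:46220736-46491972 (minus strand), had 0 reads in each DMSO library, 4, 1, 2 and 2 reads in JQ1 replicates 17 to 20, and 2, 3 and 4 reads in I-BET 762 replicates 21 to 23. The treated libraries all held reads and the DMSO libraries none, but a count of 0 allows up to 3 reads, so no fold is given. The gene did not pass the filter on low values. When the 22784 symbols with a value above 0 in any library were all tested, it was called higher with each inhibitor. With 0 reads in each DMSO library it entered that filter through treated libraries alone, so its direction was fixed beforehand. The call rests on 1 to 4 reads per treated library and is not a test of a rise.

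Ordered by level per kb, DMSO cells held PPP3CA at 1156 ± 30.9 normalized counts per kb (SD, n = 3), PPP3CB at 362 ± 9.15, NFATC3 at 324 ± 16.6, PPP3CC at 302 ± 18.1, NFAT5 at 137 ± 10.7, RCAN1 at 128 ± 2.72 and NFATC4 at 105 ± 2.07. NFATC2 followed at 14.9 ± 1.67 and NFATC1 at 5.62 ± 0.25. The libraries of NFATC3 and PPP3CC overlapped, as did those of NFAT5 and RCAN1, so the order within these pairs is not settled. With JQ1, NFATC4 stood at 1.21 ± 0.23 (n = 4), below NFATC2 at 2.96 ± 0.74 and overlapping NFATC1 at 0.87 ± 0.50. With I-BET 762 it stood at 3.71 ± 0.73 (n = 3), where it overlapped NFATC2 at 4.85 ± 1.68 and lay above NFATC1 at 1.64 ± 0.39. NFATC4 thus left the level of RCAN1 and NFAT5 and joined the sparse members.

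JQ1 and I-BET 762 were given at the same dose and time, so they were also compared with each other for all 9 members tested. NFATC4 was the 1 member called, where 5.31% of all genes were called. With no fold threshold PPP3CB passed as well, higher under JQ1 by 0.29 on the log2 scale (95% interval 0.18 to 0.40, adjusted p = 0.0007549, limma), making 2 of 9 beside 27.3% of all genes, and these 2 were also the members whose JQ1 and I-BET 762 libraries did not overlap, beside 33.8% of all genes. NFATC1 and NFATC2 were lower under JQ1 by 0.97 (95% interval -1.76 to -0.17) and 0.66 (-1.19 to -0.12), each with an adjusted p of 0.06724. PPP3CC was higher by 0.16 (0.03 to 0.30, adjusted p = 0.06707).

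For the rest the interval of the log2 difference between JQ1 and I-BET 762 was narrow. It ran from -0.19 to 0.05 for NFATC3 (adjusted p = 0.3762), from -0.02 to 0.27 for NFAT5 (adjusted p = 0.1779), from -0.07 to 0.11 for PPP3CA (adjusted p = 0.769) and from -0.24 to 0.06 for RCAN1 (adjusted p = 0.3692), by limma. These misses do not show that the compounds act alike. The NFATC1 and NFATC2 results moved both ways with the libraries used. Without JQ1 replicate 17, NFATC1 was called at -1.24 (adjusted p = 0.0198), and without replicates 17 and 19 at -1.61 (adjusted p = 0.004144). Its difference was -0.67 (adjusted p = 0.1388) without JQ1 replicate 18 and -0.32 (adjusted p = 0.4618) without replicates 18 and 20. Without JQ1 replicate 20 or I-BET 762 replicate 22, NFATC2 was called at -0.80 (adjusted p = 0.031) and -0.98 (adjusted p = 0.0102), and without JQ1 replicates 18 and 20 at -0.87 (adjusted p = 0.01663). Its difference was -0.44 (adjusted p = 0.2824) without JQ1 replicates 17 and 19, and -0.49 without I-BET 762 replicate 21 (adjusted p = 0.2524) or 23 (adjusted p = 0.2556).

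Around the members, 72 genes of the pathway were listed in 6 groups, of which 51 were tested. With JQ1 15 of them were called higher and 5 lower (39.2% called, beside 36.1% of all genes), and with I-BET 762 10 were called higher and 4 lower (27.5%, beside 26.9%). The share called in either direction was thus close to that of all genes, while the directions were not. With JQ1 29.4% were higher and 9.80% lower, beside 13.3% and 22.8% of all genes, and with I-BET 762 19.6% and 7.84%, beside 8.96% and 17.9%. The lists were made with earlier results of these data known, and 5 of the 15 genes higher with JQ1 were AP-1 genes. The directions of the listed genes were not rechecked with libraries at equal totals, so these shares are a description. The shares of all genes given here stand beside each list that follows. Between the inhibitors 8 of the 51 were called (15.7%, beside 5.31%), of which 5 were AP-1 genes.

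**Figure D4:**
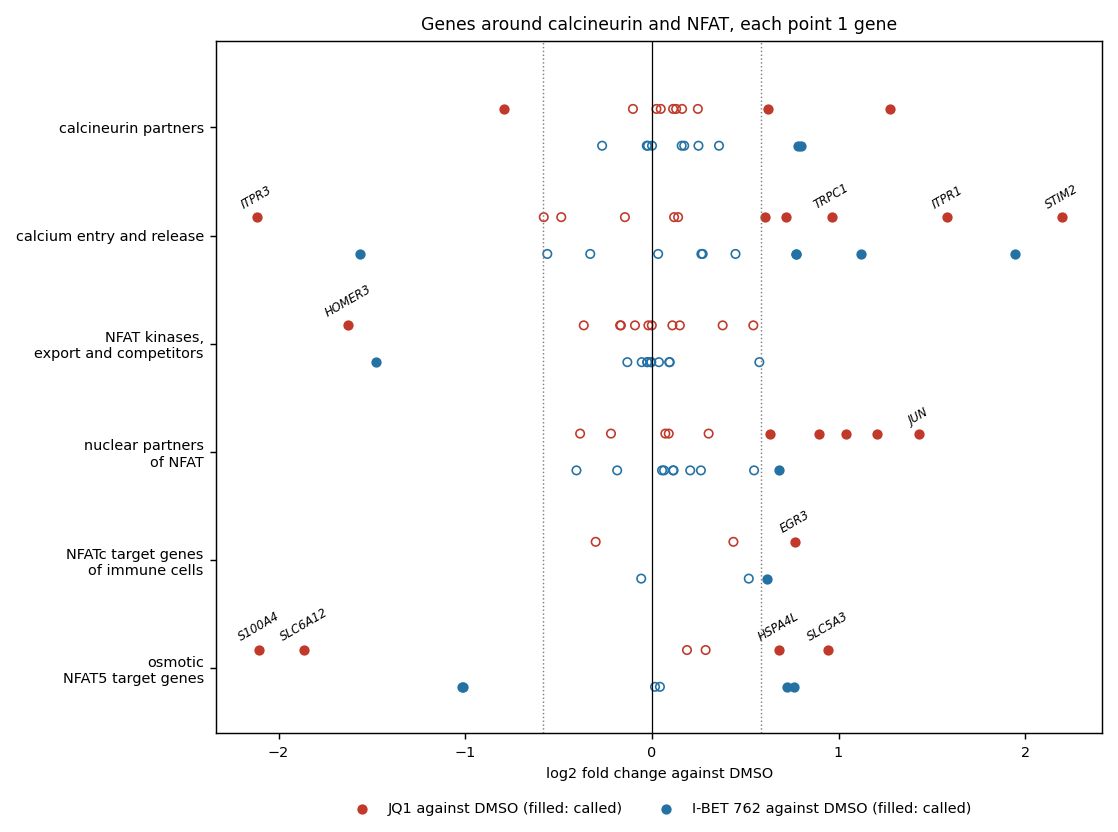
Log2 fold change against DMSO (horizontal axis) of the 51 tested pathway genes in 6 lists (rows), each point 1 gene, JQ1 in red and I-BET 762 in blue, filled where called. Dotted lines mark 1.5-fold, and names are given for genes called in the same direction with both inhibitors, at most 4 a list, with 1 left unnamed. STIM2 lies farthest to the right at 2.198 and 1.95, and ITPR3 farthest to the left with JQ1 at -2.12.

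Among 10 calcineurin partners tested, 2 were called higher and 1 lower with JQ1, and 2 higher and 0 lower with I-BET 762. The list median was 0.12 and 0.17, beside 0.01 and 0.00 over all genes tested. RCAN3, a relative of RCAN1 singled out after its values were seen, fell by 0.79 with JQ1 (adjusted p = 1.355e-08, limma) and was lower by 0.27 with I-BET 762. The direct difference was -0.52 (adjusted p = 2.786e-05). AKAP5, an anchor of calcineurin also picked afterwards, was called with I-BET 762 alone at 0.78, and its difference between the inhibitors was itself called (-0.76, adjusted p = 0.0005535). PPIA, which was higher with JQ1 at 0.62, has many processed copies in the genome and its count is uncertain.

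Calcium entry and release held 11 tested genes, of which 5 were called higher and 1 lower with JQ1 and 4 higher and 1 lower with I-BET 762. Of all genes, 13.3% were called higher and 22.8% lower with JQ1, and 8.96% and 17.9% with I-BET 762. The list median was 0.14 and 0.27. STIM2, a calcium sensor of the endoplasmic reticulum, rose from 794 ± 29.4 to 3646 ± 136 with JQ1 and 3061 ± 66.5 with I-BET 762, a log2 fold change of 2.198 and 1.95. ITPR1 and ITPR3 encode inositol trisphosphate receptors, which release calcium from that store, and moved apart. ITPR1 rose, with log2 fold changes of 1.58 and 1.12. ITPR3 fell, with -2.12 and -1.57, from 3059.7 ± 459 normalized counts to 703 ± 91.5 and 1026 ± 57.3. TRPC1, a cation channel, rose by 0.96 and 0.77.

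Of the 11 kinases, export factors and competitors of NFAT, HOMER3 was the 1 gene called, and it was called with both inhibitors. It encodes a scaffold that competes with calcineurin for NFAT, and fell from 665 ± 35.0 normalized counts to 215 ± 14.8 with JQ1 and 238 ± 7.98 with I-BET 762 (-1.63 and -1.48 on the log2 scale). The median of this list was -0.02 and -0.01. The other 10 genes were not called. Among them GSK3B, a kinase that drives NFAT out of the nucleus and was singled out after its values were seen, came close to the fold threshold, with 4107 ± 163 normalized counts with DMSO, 5984 ± 177 with JQ1 and 6119 ± 179 with I-BET 762. Its log2 difference was 0.54 (adjusted p = 2.392e-08, limma) and 0.58 (adjusted p = 5.832e-08), and every treated library lay above DMSO.

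The 10 tested nuclear partners of NFAT had a median of 0.47 with JQ1 and 0.11 with I-BET 762. The 5 genes called higher with JQ1 were the AP-1 genes FOS, JUN, FOSL1, JUNB and JUND, and JUN was the 1 gene called higher with I-BET 762. Short of a call with I-BET 762, the log2 difference was 0.55 for JUND (adjusted p = 0.02433, limma) and 0.26 for FOS (adjusted p = 0.04828). It was 0.21 for FOSL1 (adjusted p = 0.1592) and -0.40 for JUNB (adjusted p = 0.04808). These 5 AP-1 genes were also called higher under JQ1 than under I-BET 762, from 0.66 for JUND (adjusted p = 0.01501, limma) to 1.04 for JUNB (adjusted p = 0.0002094). JUNB had 1323 to 1518 normalized counts with DMSO and 985 to 1166 with I-BET 762. In JQ1 replicates 17 to 20 it had 2843, 1695, 2851 and 1701. JUN and JUND split the same JQ1 libraries, with JUN at 6676, 4099.7, 6454 and 4569, and JUND at 3739, 2031, 3981 and 2122. Replicates 17 and 19 were thus the higher pair for JUN, JUNB and JUND. FOS had 2777, 2526, 2870.3 and 2693 in the same libraries, where the pair was also the higher one by a small margin. FOSL1 had 676, 552, 650.3 and 689, where it was not. Among the members NFATC1 was higher in this pair, but on 12 and 10 reads beside 3 and 5. NFATC3 was lower in it, with 3147 and 3335 normalized counts beside 3696 and 3476.

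Of 11 target genes of NFAT in immune cells, 3 could be tested. EGR3 was called higher with each, at log2 fold changes of 0.76 and 0.62, from 33.8 ± 7.77 normalized counts with DMSO to 57.7 ± 8.89 and 52.7 ± 13.0, with overlap of I-BET 762 and DMSO libraries. The other genes tested, EGR2 and NR4A1, were not called. With JQ1 and I-BET 762 EGR2 differed by 0.44 (adjusted p = 0.1914, limma) and 0.52 (adjusted p = 0.1616). NR4A1 differed by -0.30 (adjusted p = 0.0303) and -0.06 (adjusted p = 0.7101). IL2, IL4, TNF, CSF2, IFNG and CD40LG are not analysed here. Of the 6 tested osmotic target genes of NFAT5, 2 were called higher and 2 lower with each inhibitor. SLC5A3, the sodium-dependent inositol transporter, rose by 0.94 and 0.76, and HSPA4L, a heat shock protein gene, by 0.68 and 0.72. SLC6A12, the betaine transporter, fell, with log2 fold changes of -1.86 and -1.01, and so did S100A4, a calcium-binding protein gene, with -2.10 and -1.02. Both were sparse. SLC6A12 went from 36.8 ± 1.88 normalized counts with DMSO to 9.49 ± 1.84 with JQ1 and 18.5 ± 7.41 with I-BET 762. S100A4 went from 102 ± 4.06 to 23.1 ± 3.48 and 51.4 ± 17.0.

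Finally, the genes whose log2 values followed NFATC4 most closely were listed. Over the 10 libraries, which form 3 groups, Pearson's r with NFATC4 was 0.9985 for ABLIM1, 0.9982 for BST2, 0.998 for B4GALT2, 0.9978 for FSD1 and 0.9978 for IFIH1, and 2795 tested genes exceeded 0.9, so a high value mainly says that a gene had the same order of groups. With group means removed, r was 0.622, 0.863, 0.681, 0.465 and 0.681. These genes were picked by r over the same libraries, so the values are not a separate check. None fell as far as NFATC4: BST2 changed by -3.17 with JQ1 and -2.27 with I-BET 762, and ABLIM1 by -1.14 and -0.87. For RCAN1 the closest were COL8A2 (0.9939), TMEM200B (0.9921), TFR2 (0.9919), SLC4A3 (0.9913) and DDX60 (0.9913), among 2407 genes over 0.9, and all 5 fell more than RCAN1, from -1.73 for TMEM200B to -3.07 for COL8A2 with JQ1.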

How the data were processed

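RNA-seq was performed on SK-UT-1 cells treated for 48 h. Per the authors, Trimmomatic was used for trimming, HISAT2 2.2.1 for alignment to hg38, featureCounts 2.0.3 for counting on Gencode V41 genes and DESeq2 for normalization, and outlier samples were left out. Each symbol has 1 deposited value per library, the log2 of its normalized count after adding 1, and how several identifiers were merged into 1 symbol is not given in the sources used here. Undoing the log2 gave whole reads, within 0.05, for 99.75% to 99.78% of the values per library, and thereby each depth and size factor.

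The members and gene lists were chosen with earlier results of these data known. Genes with a normalized count of at least 10 in at least 3 libraries (14839) entered 1 limma model (limma 3.58.1, R 4.3.3) of all 10 libraries with an intensity trend, and adjusted by Benjamini-Hochberg per contrast. The code was tested on simulated data. SDs are over libraries. A fold change is on the log2(value + 1) scale and understates the change of sparse genes. Positions, exon lengths and overlaps come from Gencode V44, and promoters from RefSeq on GRCh38.p14. Tables used Python 3.11.15 and pandas 2.3.3.

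All 10 members are given in full. Of each pathway list, the genes called in the same direction with both inhibitors were named, at most 4 a list, by their smaller change, with 5 genes by correlation with NFATC4 and 5 with RCAN1. Alternatives were pseudocounts of 0.5 and 5, other filters, scalings and fold thresholds, no trend, 2-group models, limma-voom on the recovered reads, leaving out each library and, added after seeing the data, leaving out JQ1 replicates 17 and 19 or 18 and 20. Of the listed genes, those with no row (14 symbols) are not analysed here. A few listed genes are not reported here one by one.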

Additional observations from a re-analysis of the deposited data

Results flagged for a closer look

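NFATC4 and PPP3CB were picked out because their change against DMSO differed between the inhibitors by a test of the difference itself. For NFATC4 the change with JQ1 minus that with I-BET 762 was -1.53 on the log2 scale (adjusted p = 2.255e-05, limma), and every JQ1 library (8.79 to 13.0 normalized counts) lay below every I-BET 762 library (27.1 to 38.4). For PPP3CB it was 0.2869 (adjusted p = 0.0007549, limma), with JQ1 at 3561 to 4076 and I-BET 762 at 3042 to 3120.0 normalized counts. Over all genes tested 27.3% passed the same comparison at an adjusted p under 0.05, so such a difference was common. NFATC4 was chosen with its fall in these treated libraries known, so its p is not independent of that choice. No group of 4 libraries had a member value far enough from the others to stand out.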

How the results depend on the processing

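Of 453 values of members under an alternative, 445 kept their direction and whether they were called. Of the 420 with a p, 19 crossed an adjusted p of 0.05, among them NFAT5 with I-BET 762 without DMSO replicate 14 (0.0682) or I-BET 762 replicate 23 (0.0723), and PPP3CC with I-BET 762 without DMSO replicate 13 (0.102) or I-BET 762 replicate 22 (0.0879). The number of members called stayed at 5 with each inhibitor when any 1 library was left out. With all genes above 0 tested it was 6 with each. The addition was RCAN2, which that filter admitted through treated libraries alone, so its call is not a test. Without a fold threshold the number of members called was 9 with each. A mean normalized count of at least 100 left 3 with each, since NFATC1 and NFATC2 were then not tested. A 2-fold threshold left 3 with I-BET 762. Between the inhibitors 1 member was called, against 2 at equal totals (NFATC2 at -0.74, adjusted p = 0.0456), 2 without a fold threshold, 2 without JQ1 replicates 17 and 19, 2 without 18 and 20, and 1 to 2 when each library was left out. Without JQ1 replicates 17 and 19 NFATC3 turned from -0.07 to 0.0019 (adjusted p = 0.9868), and at equal totals PPP3CA turned from 0.02 to -0.069 (adjusted p = 0.2301). With a pseudocount of 5 NFATC4 changed by -5.89 with JQ1.

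Over all genes, calls numbered 5358 with JQ1, 3991 with I-BET 762 and 788 between them. They were 10633, 9073 and 4047 with no fold threshold, 2958, 2108 and 206 at 2-fold, and 3359, 2338 and 418 at a mean of at least 100. Using limma-voom on the recovered reads gave 5397, 4033 and 739. Leaving out each library gave 4962 to 5394, 3615 to 3855 and 603 to 873. Equal totals moved the median of all genes by -0.18 and -0.10 and between the inhibitors by -0.09, and the share of calls that were lower went from 63.1% to 77.5% with JQ1, from 66.7% to 75.5% with I-BET 762 and from 67.5% to 82.0% between them. No paired analysis was possible because no replicate number is shared between groups.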
